A study of Mus musculus with 8 samples.

Results

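H4K20me3, trimethylation of lysine 20 on histone H4, was compared between wild-type (WT) and KAP1 knockout (KO) mouse embryonic fibroblasts (MEF), which are connective tissue cells taken from embryos. All peaks of both deposited H4K20me3 lists on chromosomes 1 to 19 were taken, which gave 11104 WT peaks and 8673 KO peaks, or 19777 of the 38359 peaks in the 5 lists of the series. The other 191 WT and 247 KO peaks lay on chromosome X or on unplaced sequence. Each genotype was represented by 1 library, so differences have no replicate check and no test between genotypes was possible. Genotype, culture and library cannot be told apart. How the KAP1 gene was inactivated, and whether the cells were primary or immortalised, is not given in the sources used here. Peak lists hold no expression values, so neither the cell type nor the knockout was checked.

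H4K20me3 is a mark of constitutive heterochromatin. In the best known pathway, KRAB zinc finger proteins bring the corepressor KAP1 (also called TRIM28) to DNA, KAP1 recruits the methyltransferase SETDB1, SETDB1 writes H3K9me3, and HP1 proteins bound to H3K9me3 recruit the SUV420H enzymes that trimethylate histone H4. The mark is known from pericentromeric repeats, telomeres, endogenous retroviruses and imprinted regions. The series' title concerns the return of heterochromatin after DNA is copied.

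A WT peak is called kept when at least 1 bp of it overlapped a KO peak and lost otherwise, and a KO peak is called shared or new in the same way. By this rule 7279 WT peaks were kept, and 3825 of 11104 were lost, a share of 34.4% (exact 95% interval 33.6 to 35.3%). New peaks made up 16.0% of the KO list (1384 of 8673, interval 15.2 to 16.8%). The 2 lists covered 9.67 Mb in WT and 7.72 Mb in KO, and 5.96 Mb lay in both, which was 61.6% of the WT bases and 77.2% of the KO bases. The intervals cover counting error over peaks alone, and peaks of 1 library are not replicates. A lost peak is one that was not called, which does not show that the mark was absent. The depth behind each peak is unknown.

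H4K20me3 peaks were of similar length in both genotypes. The median was 769 bp in WT (95% interval of the median 762 to 776 bp) and 799 bp in KO (790 to 807 bp), and the middle 50% of peaks ran from 577 to 1029 bp in WT and from 604 to 1050 bp in KO. The difference of 30 bp turned to -63 bp when equal numbers of the highest-scoring peaks were compared, and to -2 bp among peaks with a score of at least 100. The direction of the whole-list difference thus depended on how many low-scoring peaks were counted.

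Length separated the classes of peaks within each list. Kept WT peaks had a median of 842 bp and lost ones of 602 bp, a difference of -240 bp for lost against kept. In KO the median was 848 bp for shared peaks and 537 bp for new ones. The kept and shared curves lie on top of each other, and new KO peaks were shorter than lost WT peaks at every quartile, with a lower quartile of 437 against 478 bp and an upper quartile of 689 against 838 bp. Among peaks with a score of at least 100 the difference of lost against kept WT peaks narrowed to -87 bp, and for equal numbers of highest-scoring peaks to -89.5 bp.

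**Figure D1:**
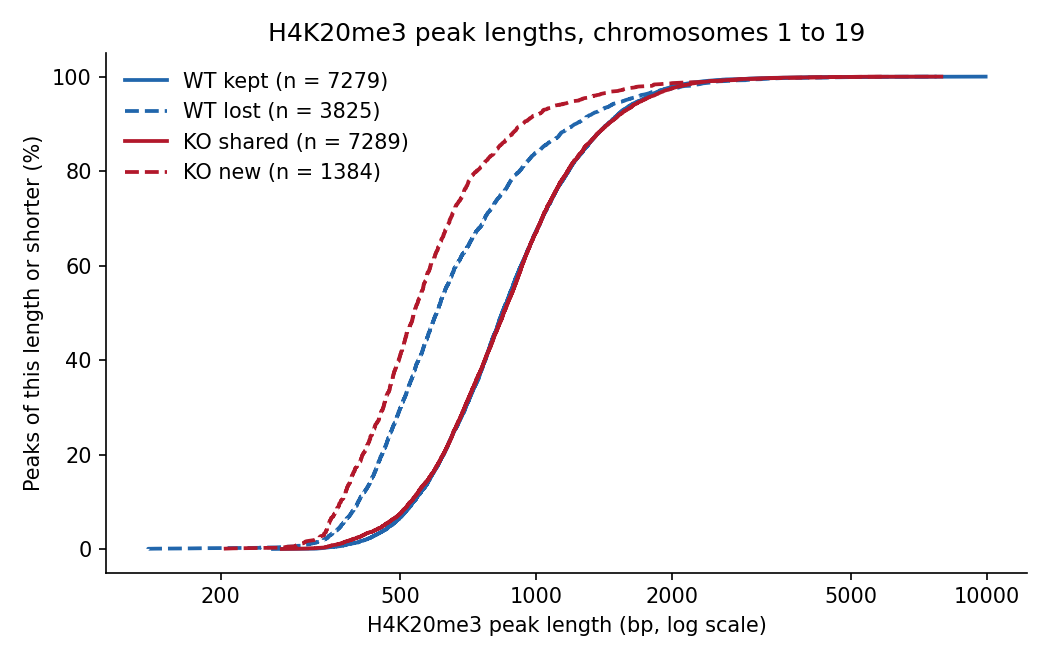
Cumulative share of H4K20me3 peaks (%, vertical) by peak length (bp, log scale, horizontal) for kept and lost WT peaks and shared and new KO peaks, 1 library per genotype. The kept and shared curves coincide, with medians of 842 and 848 bp, and the lost and new curves lie to the left, with medians of 602 and 537 bp.

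The share kept did not go up evenly with length. In the shortest decile of WT peaks, from 138 to 462 bp, 26.4% were kept. The share was 73.8% in the fifth decile (686 to 769 bp) and highest in the eighth (962 to 1115 bp), at 83.4%. It was lower again in the longest decile, from 1391 to 9945 bp, at 75.5%. That longest decile held the largest share of peaks on WT H3K9me3, 21.4%, against 6.49 to 12.4% in the other deciles. Away from WT H3K9me3 the longest decile kept 90.8%, the highest of the 10 values.

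Within a band of similar score, lost peaks had the higher median length in most bands, by little in the low ones. WT peaks were ranked by score within their list and divided into deciles. In the lowest decile lost and kept peaks had medians of 433 and 438 bp. The medians were 513 and 502 bp in the second decile and 584 and 565 bp in the third. These low deciles held 881, 736 and 623 lost peaks, in this order. In the sixth decile they were 933 bp for 245 lost peaks and 779 bp for 865 kept ones, and in the highest decile 2206.5 bp for 94 lost peaks and 1473 bp for 1017 kept ones. Lost peaks had the higher median in each decile from the second to the highest. Away from WT H3K9me3 the medians in the sixth decile were 881.5 and 777.5 bp, so a difference in the same direction was present there, and the highest decile then held only 10 lost peaks, with a median of 1996.5 bp. Lost peaks were thus shorter than kept ones as a whole. At a given rank they were broader in the higher deciles, where fewer were lost, and differed little in the low ones.

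H4K20me3 peaks on H3K9me3 differed from the others more in being kept than in length. The 1190 WT peaks on a WT H3K9me3 peak had a median of 802 bp and the 9914 others 766 bp, while the lower quartile was 560.5 bp on H3K9me3 and 580 bp elsewhere. Only 89 of the 1190 were kept, and 1101 were lost, a share of 92.5% (interval 90.9 to 94.0%), against 34.4% of all WT peaks. The 89 kept ones had a median of 1442 bp (1129 to 1747 bp) and the 1101 lost ones 777 bp (744 to 809 bp). Among new KO peaks, 45 of 1384 lay on a KO H3K9me3 peak (3.25%, interval 2.38 to 4.33%), with a median length of 694 bp against 536 bp for the other new peaks. Among shared KO peaks the share on KO H3K9me3 was 0.494% (36 of 7289). New peaks lay on a WT KAP1 position in 2 of 1384 cases (0.14%). The KAP1 list held only 361 autosomal peaks, and the share over all KO peaks is not given here. This count is therefore not read as new peaks avoiding KAP1.

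The longest peaks stood at very different ranks by score. The longest WT peak, 9945 bp on chromosome 8 from 20015067 to 20025011, stood at rank 1676 of the WT list by score, where rank 1 is the highest. The second, 8925 bp on chromosome 1 from 90158183 to 90167107, stood at rank 6166 and overlapped no H3K9me3 peak. The longest KO peak, 7932 bp (90159071 to 90167002), overlapped that second WT peak, and the next longest, 6088 bp (90168986 to 90175073), began just beyond its end. These 2 KO peaks stood at ranks 2308 and 873 of 8673, so the stretch was wide in both genotypes. The third longest WT peak, 7744 bp on chromosome 10 from 79197894 to 79205637, was the highest-ranked peak of the WT list, lay on H3K9me3 and KAP1, and was lost.

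The 3 longest new KO peaks all lay on chromosome 8. They spanned 19721280 to 19727278 (5999 bp), 20002822 to 20007580 (4759 bp) and 19681250 to 19685512 (4263 bp), and ranked 8315, 7087 and 7914 of 8673. None overlapped an H3K9me3 peak of either genotype. The longest WT peak began beyond the end of these 3 peaks, at 20015067. After the one on chromosome 10, the longest lost WT peaks were 6612 bp on chromosome 2 (157379463 to 157386074) and 5369 bp on chromosome 5 (23212248 to 23217616), at ranks 43 and 46 of 11104. Both lay on WT H3K9me3, and the first also on a KAP1 peak. These lost peaks were thus near the top of their list by score and the new ones near the bottom.

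Boundaries were compared on 6736 pairs, each a WT and a KO peak that overlapped each other and no other peak of the other list. The remaining 543 kept WT peaks and 553 shared KO peaks took part in splits or joins. In all, 194 WT peaks overlapped at least 2 KO peaks and 185 KO peaks overlapped at least 2 WT peaks, so splits and joins were about equally frequent. The WT peak over most KO peaks, 4 of them, lay on chromosome 12 from 114019667 to 114023443 and on WT H3K9me3. The KO peak over most WT peaks, also 4, lay on chromosome 10 from 117143638 to 117148475 and on no H3K9me3 peak.

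Pairs largely kept their extent. The median overlap was 0.812 of the joint extent of both peaks (the Jaccard index), and the centres lay a median of 58 bp apart. Both edges lay within 100 bp of each other in 2610 pairs (38.7%). The median outward shift in KO was 4 bp for the left edge (1 to 7 bp) and 1 bp for the right edge (-2 to 5 bp), while the absolute shift had a median of 72 bp on the left and 77 bp on the right. Edges thus shifted outward about as often as inward. The median shifts were smaller than the fragments of 200 to 400 bp given for both libraries. KO peaks were longer in 3418 pairs (50.7%), shorter in 3302 and equal in 16, with a median difference of 4 bp (-1 to 10 bp). With equal numbers of highest-scoring peaks the median difference was -3 bp, and it was -1 bp when splits and joins were included.

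The shifts of the 2 edges of a peak were nearly unrelated. In 1837 pairs (27.3%) both edges lay further out in KO, in 1692 (25.1%) both lay further in, and in 3150 (46.8%) one lay further out and one further in. Over the pairs, which share their libraries, Spearman's rho between the left and the right outward shift was 0.091. Short WT peaks had longer partners and long WT peaks had shorter ones, from a median of 91 bp gained in the shortest quintile by WT length (261 to 627 bp) to a median change of -92 bp in the longest (1169 to 9945 bp). Ordered by KO length the pattern ran the other way, from -97 to 111 bp. The direction thus depended on which list ordered the pairs, and neither order is read as a change of short or long peaks.

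**Figure D2:**
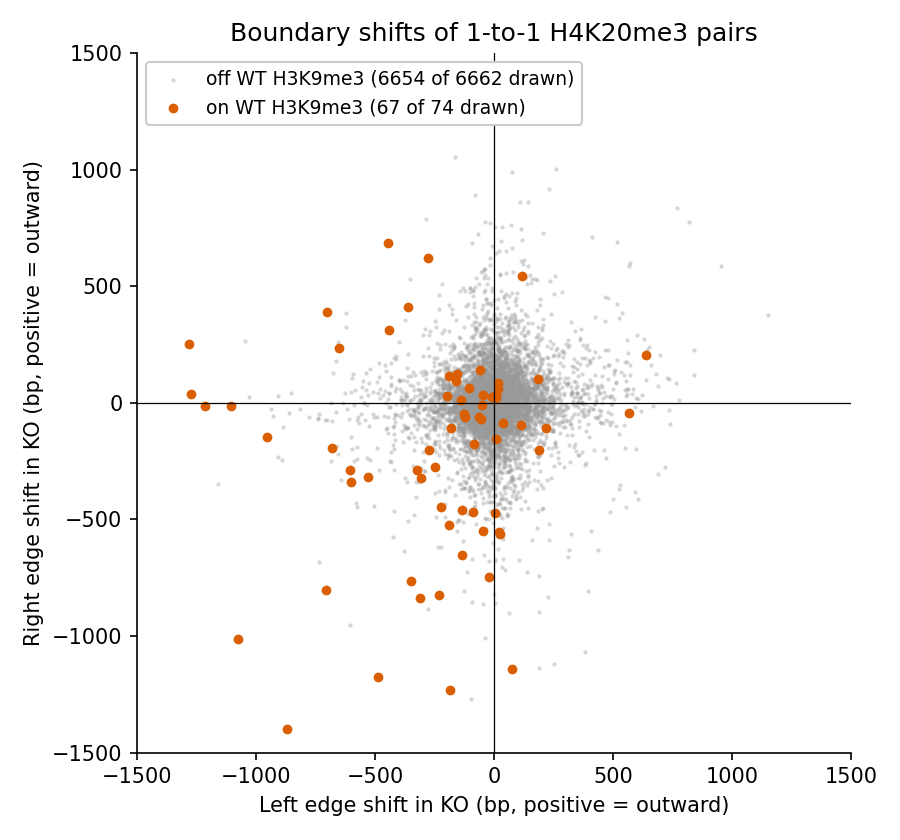
Outward shift in KO of the left edge (bp, horizontal) and the right edge (bp, vertical) of each 1-to-1 H4K20me3 pair, with pairs on WT H3K9me3 in orange. Axes end at 1500 bp, which leaves out 8 grey and 7 orange pairs. Grey points scatter around 0 in all directions, and 38 of the 74 orange pairs have both edges further in.

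Pairs on WT H3K9me3 were narrower in KO. There were 74 of them, and their median length was 1447 bp in WT and 689 bp in KO. The median length change was -471 bp (-630 to -145 bp), and 58 of the 74 were shorter in KO, against 49.0% of all pairs. In 34 of them (45.9%, interval 34.3 to 57.9%) the WT peak was at least 1.5 times as long as its partner, against 6.61% of all pairs. Both edges lay further in for 38 of the 74 (51.4%), against 25.1% of all pairs. The median overlap was 0.569 of the joint extent. The left edge lay a median of 183 bp further in and the right edge 118.5 bp, as outward shifts of -183 and -118.5 bp. Only 10 of the 74 had both edges within 100 bp, against 2610 of all 6736 pairs. Long WT peaks had shorter partners among all pairs too, with a median change of -92 bp in the longest quintile by WT length. The 74 were not compared with pairs of equal WT length.

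These 74 pairs were divided by the KO H3K9me3 list, which held 2862 autosomal peaks against 14185 in WT. In 31 pairs a KO H3K9me3 peak lay at the same place, and the median length change was -121 bp (-788 to 18 bp). In the other 43 pairs, without one, it was -558 bp (-873 to -261 bp). The difference between the 2 sets was not tested. The 15 pairs on a WT KAP1 peak had a median length change of -384 bp (-1100 to -75 bp). Of these 15, 13 were shorter in KO, against 49.0% of all pairs. The 6662 pairs away from WT H3K9me3 had a median of 6 bp (0 to 12 bp).

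The largest losses of length among pairs all lay on WT H3K9me3. On chromosome 8 the longest WT peak named above had a KO partner of 3003 bp (20018102 to 20021104), a change of -6942 bp. On chromosome 3 a WT peak of 6116 bp (98228938 to 98235053), also on KAP1, had a KO partner of 390 bp (98231191 to 98231580), with the edges 2253 and 3473 bp further in (outward shifts of -2253 and -3473 bp). On chromosome 12 a WT peak of 3982 bp (114013611 to 114017592) had a KO partner of 692 bp. In these last 2 regions a narrow KO peak thus stood inside a wide WT one.

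The largest gains of length lay on the far end of chromosome 10 and the near end of chromosome 18. A WT peak of 860 bp on chromosome 10 (126958714 to 126959573) had a KO partner of 5340 bp (126954347 to 126959686), and 4367 of the 4480 bp gained lay on the left side. A second WT peak, of 1483 bp (126500527 to 126502009), had a KO partner of 5291 bp, and there 3725 bp lay on the right side. On chromosome 18 a WT peak of 562 bp (3118787 to 3119348) had a KO partner of 3875 bp (3115104 to 3118978). The first 2 regions overlapped no H3K9me3 peak and the third overlapped H3K9me3 in both genotypes. In all 3 pairs most of the gain lay on 1 side. The first 2 also reached 113 and 83 bp further out on the other side, and the third reached less far there (-370 bp).

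Neighbouring peaks lay further apart in KO. The median gap from the end of a peak to the start of the next was 56.6 kb in WT (54.4 to 58.7 kb) and 75.5 kb in KO (72.3 to 79.0 kb), a KO to WT ratio of 1.33. The WT list held 1.28 times as many peaks as the KO list. With equal numbers of highest-scoring peaks the ratio was 0.980. It was 1.15 (1.145) among peaks with a score of at least 100 and 1.17 after merging peaks within 5 kb, where the lists again differed in number. Between kept WT peaks alone the median gap was 90.7 kb, and between shared KO peaks alone 90.4 kb. Kept and shared peaks overlap each other by definition, so their similar gaps follow from the rule and are not read as a result.

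Short gaps made up a larger share in the WT list, which also held more peaks. These shares were not computed for lists of equal size. Gaps of at most 1 kb made up 10.8% in WT (1200 of 11085) and 8.66% in KO (749 of 8654). Gaps of at most 5 kb made up 16.4% in WT (1813, interval 15.7 to 17.1%) and 11.4% in KO (984, interval 10.7 to 12.1%), and gaps of at most 50 kb 47.0% and 39.7%. Up to 500 kb the shares were 89.5 and 86.7%. Of these 4 distances, the shares lay furthest apart at 50 kb.

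**Figure D3:**
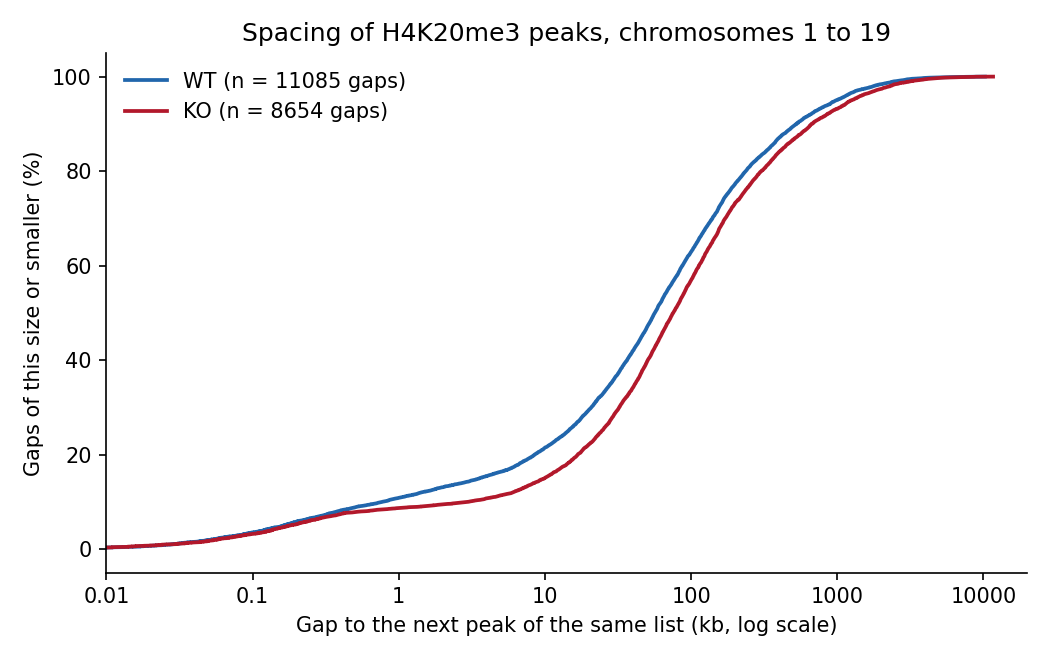
Cumulative share of gaps (%, vertical) by distance to the next peak of the same list (kb, log scale, horizontal), 11085 gaps in WT and 8654 in KO. The WT curve lies above the KO curve at 1, 5, 50 and 500 kb, and at 50 kb they reach 47.0% in WT and 39.7% in KO.

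Close neighbours were followed into the other list. Of the 1200 pairs of WT neighbours within 1 kb, 499 (41.6%) had no KO peak at either, 227 (18.9%) had one at only one of them, 187 (15.6%) lay on a single KO peak and 287 (23.9%) on separate KO peaks. Of the 749 pairs of KO neighbours within 1 kb, 36 (4.81%) had no WT peak at either, 233 (31.1%) had one at only one of them, 199 (26.6%) lay on a single WT peak and 281 (37.5%) on separate WT peaks. Most of these neighbour pairs touched a peak of the other list at 1 or both members. Of all single peaks, 65.6% in WT and 84.0% in KO had a peak in the other list. The counts are therefore not read as close neighbours being retained more often. The lists differed in their shares of lost (34.4%) and new (16.0%) peaks to begin with, so the counts of the 2 lists are not compared. Merging peaks within 5 kb gave 9291 regions in WT, the longest of 25677 bp, and 7689 in KO, the longest of 16634 bp.

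Lost peaks lay beside other lost peaks. The nearest WT neighbour was lost for 2223 of 3825 lost peaks (58.1%, interval 56.5 to 59.7%) and for 1824 of 7279 kept ones (25.1%, interval 24.1 to 26.1%), against 34.4% lost in the whole list. For lost and kept peaks away from WT H3K9me3 the shares were 54.4% and 24.7%, and 27.5% of all WT peaks away from it were lost. Their neighbours could still lie on WT H3K9me3. New KO peaks had a new nearest KO neighbour in 363 of 1384 cases (26.2%), and shared peaks in 14.2%, against 16.0% new in the whole list. The median distance from a lost WT peak to the nearest KO peak was 50.1 kb, and from a new KO peak to the nearest WT peak 30.0 kb.

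Runs of consecutive peaks of 1 class were counted along the chromosomes. Lost peaks were 34.4% of their list and new peaks 16.0% of theirs, and a larger class forms longer runs by its share alone, so the 2 sets of runs are not compared. Along the chromosomes the 3825 lost peaks fell into 1873 runs of consecutive lost peaks, of which 1081 were single peaks, and 151 runs of 5 or more held 1121 peaks (29.3%). The 1384 new peaks fell into 1058 runs, and 5 runs of 5 or more held 36 peaks (2.60%). The longest lost run held 21 WT peaks over 575 kb of chromosome 17 (75189232 to 75764046), 6 of them on WT H3K9me3. The next held 19 peaks each, on chromosome 13 (60122114 to 62880718, 7 on H3K9me3) and chromosome 17 (43542654 to 44844243, 5 on H3K9me3). Of all WT peaks 1190 of 11104 lay on WT H3K9me3, and of lost ones 1101 of 3825. The runs hold lost peaks only, so the share among lost peaks is the one to set beside them. Peaks on H3K9me3 were a minority in each of these 3 runs, which are not read as richer in them than lost peaks in general.

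The longest run of new peaks held 14 KO peaks over 10436 kb of chromosome 18 (80244060 to 90680290), with a median length of 698.5 bp. The second held 7 peaks within 63.4 kb of chromosome 10 (126979172 to 127042568), with a median of 1888 bp, and a further run, 1 of those that held 5 peaks, lay within 23.1 kb of chromosome 10 (120810159 to 120833263), with a median of 1567 bp. None of the peaks in these 3 runs overlapped H3K9me3 of either genotype. The 2 runs on chromosome 10 were dense and of long peaks, and the one on chromosome 18 was sparse.

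Peak density differed several-fold between chromosomes in both genotypes. Counted over the stretch from the first to the last H4K20me3 peak, WT density was highest on chromosome 11 (7.99 peaks per Mb), chromosome 17 (7.90) and chromosome 19 (7.40), and lowest on chromosome 18 (1.94), chromosome 14 (2.63) and chromosome 7 (2.80). In KO chromosome 11 again had the highest density (6.81), followed by chromosome 19 (5.56) and chromosome 17 (5.16), and the lowest was on chromosome 13 (2.21). Over the 19 chromosomes, which share both libraries, Spearman's rho between WT and KO density was 0.865. The order of chromosomes was therefore largely retained.

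Fewer peaks were called in KO on 17 of the 19 autosomes. The share of WT peaks lost, 34.4% in all, was highest on chromosome 13 (51.7%, 243 of 470), chromosome 16 (46.9%) and chromosome 17 (44.7%). It was lowest on chromosome 18 (11.8%, 20 of 170), chromosome 14 (24.3%) and chromosome 11 (25.03%). The share of new peaks in KO, 16.0% in all, ran from 7.16% on chromosome 3 to 42.5% on chromosome 18 (105 of 247). The ratio of KO to WT peak numbers differed 2.65-fold between the highest and the lowest autosome, or 1.90-fold without chromosome 18, and the ratio of covered bases 3.89-fold, from 0.512 on chromosome 13 to 1.99 on chromosome 18.

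The length change of pairs differed between chromosomes. The median length change of pairs was 314 bp on chromosome 18 (227 to 393 bp, 134 pairs), 148 bp on chromosome 14 (95 to 175 bp, 209 pairs) and 71.5 bp on chromosome 6 (45 to 99 bp, 346 pairs). It was -140 bp on chromosome 13 (-186 to -99 bp, 215 pairs), -110.5 bp on chromosome 3 (-136 to -90 bp, 368 pairs) and -107 bp on chromosome 16 (-138 to -78 bp, 186 pairs). On chromosome 18, 124 of 134 pairs (92.5%) were longer in KO, against 50.7% of all pairs. On chromosome 16, 39 of 186 (21.0%) were. In all, the interval of the median lay above 0 on 7 autosomes and below 0 on 6, and it included 0 on the others. These intervals treat pairs as independent, although pairs share their libraries and those of a chromosome often moved together. The intervals are therefore likely too narrow, and the counts of autosomes are not read as a test. Input libraries were not analysed here, so the copy number of chromosomes and regions in the 2 cultures was not checked, and its part in the values given by chromosome and by window was not tested.

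On chromosome 18 both edges lay further out in KO for 95 of 134 pairs (70.9%), against 27.3% of all pairs. In 67 of the 134 the KO peak was at least 1.5 times as long as its partner, against 6.16% of all pairs. The median lengths of all peaks on chromosome 18 were 608.5 bp in WT, the lowest of the 19 autosomes, and 850 bp in KO. On chromosome 13 both edges lay further in for 116 of 215 pairs (54.0%), against 25.1% of all pairs. The WT peak was at least 1.5 times as long in 48 of the 215 (22.3%), against 6.61% of all pairs. Without pairs on WT H3K9me3 the medians were 303 bp on chromosome 18, 146.5 bp on chromosome 14, -143 bp on chromosome 13 and -107 bp on chromosome 16, close to those of all pairs.

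**Figure D4:**
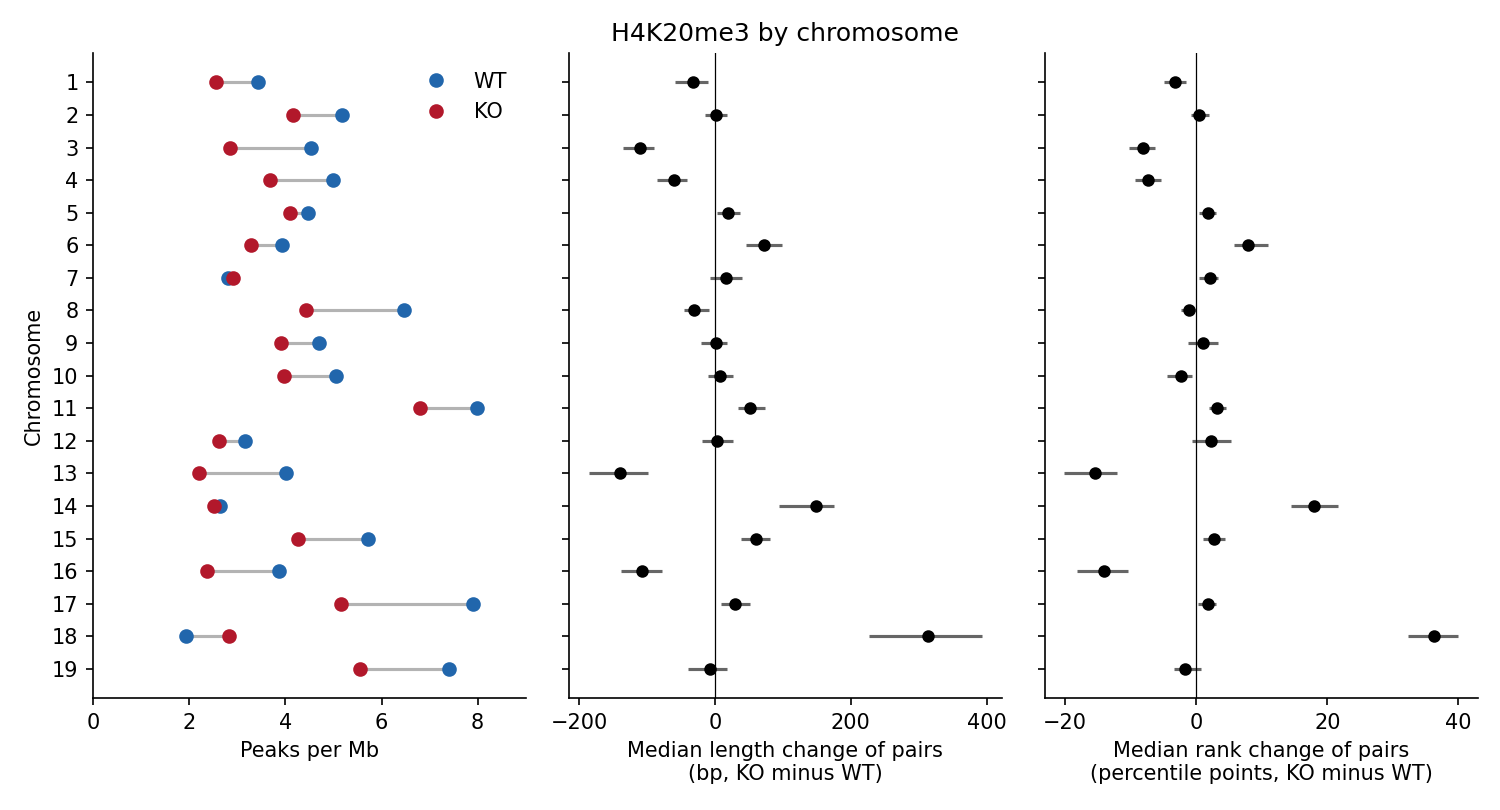
H4K20me3 by autosome, with peaks per Mb in WT (blue) and KO (red) on the left, the median length change of 1-to-1 pairs (bp, KO minus WT) in the middle and their median rank change (percentile points, KO minus WT) on the right. Grey bars in the middle and right panels are 95% intervals of the median over pairs. Chromosomes 18 and 14 lie to the right of 0 in both, and chromosomes 13, 16 and 3 to the left.

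Score was used to rank peaks within a list. So that both rankings had equal length, each of the 6736 pairs was ranked among these same pairs in WT and again in KO, on a scale from 0 (lowest) to 100 (highest). A rank change is relative to the other pairs and is not an amount of the mark. A peak's score follows its length, with a Spearman's rho over pairs of 0.866 in WT and 0.868 in KO, so ranks and lengths are not independent readings.

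Ranks were broadly retained. Spearman's rho between the WT and KO rank was 0.742 over the pairs. Of the 674 pairs in the highest decile in WT, 423 (62.8%, interval 59.0 to 66.4%) were in the highest decile in KO, and of the 674 in the lowest decile 253 (37.5%) stayed in the lowest. Among these pairs the lists thus shared more of the top of the ranking than of the bottom. Pairs hold only peaks called in both lists. Of all WT peaks, 20.7% of the lowest decile by score and 91.5% of the highest were kept. The middle 50% of rank changes ran from -11.3 to 11.8 points. A move up by at least 25 points was seen in 680 pairs (10.1%) and a move down by at least 25 points in 688 (10.2%). Rank change and length change went together, with a rho of 0.636.

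Pairs on WT H3K9me3 stood lower in the KO ranking. Their median rank change was -25.7 points (-40.5 to -15.9), with 58 of 74 lower in KO, while 50.5% of all pairs ranked higher in KO. Of the 74, 37 (interval 38.1 to 61.9%) moved down by at least 25 points, against 10.2% of all pairs. In 4 of the 74 the rank was at least 25 points higher in KO, against 10.1% of all pairs. With pairs required to overlap by at least 50% of both peaks the median was -15.9 points. Where H3K9me3 was also called in KO the median was -17.8 points (-40.5 to 3.39, 31 pairs), and where it was not -31.4 points (-60.5 to -15.4, 43 pairs). The 15 pairs on KAP1 included 7 that moved down by at least 25 points. Away from WT H3K9me3 the median was 0.20 points. The 74 were not compared with pairs of equal WT rank.

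The largest moves down were from the top of the WT ranking to the bottom of the KO ranking. The pair on chromosome 3 from 98228938 to 98235053, named above for its loss of length, went from rank 99.9 to 1.20. On chromosome 15 a WT peak of 2580 bp (79186694 to 79189273, on H3K9me3 and KAP1) at rank 96.0 had a KO partner of 493 bp at rank 1.14. On chromosome 10 a WT peak of 2951 bp (120058254 to 120061204, on H3K9me3) at rank 99.1 had a KO partner at rank 2.06 and 3028 bp long, with the edges 18 and 59 bp further out. At this last region the extent was retained and the rank was not. Of the 3 pairs with the largest losses of length, that on chromosome 8 moved up, from rank 79.2 to 97.45. Those on chromosomes 3 and 12 moved down.

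The 3 largest moves up lay away from H3K9me3, and 6662 of all 6736 pairs lay away from WT H3K9me3. A pair on chromosome 6 (WT 99471630 to 99472229, KO 99471287 to 99473839) went from rank 7.07 to 89.2 and from 600 to 2553 bp. On chromosome 10 a pair (WT 126625338 to 126625981, KO 126625026 to 126627295) went from 7.12 to 86.4 and from 644 to 2270 bp. On chromosome 15 a pair (WT 66723213 to 66723820, KO 66722954 to 66724823) went from 3.33 to 82.3 and from 608 to 1870 bp. In all 3 both edges lay further out, and most of the gain lay on the right side.

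**Figure D5:**
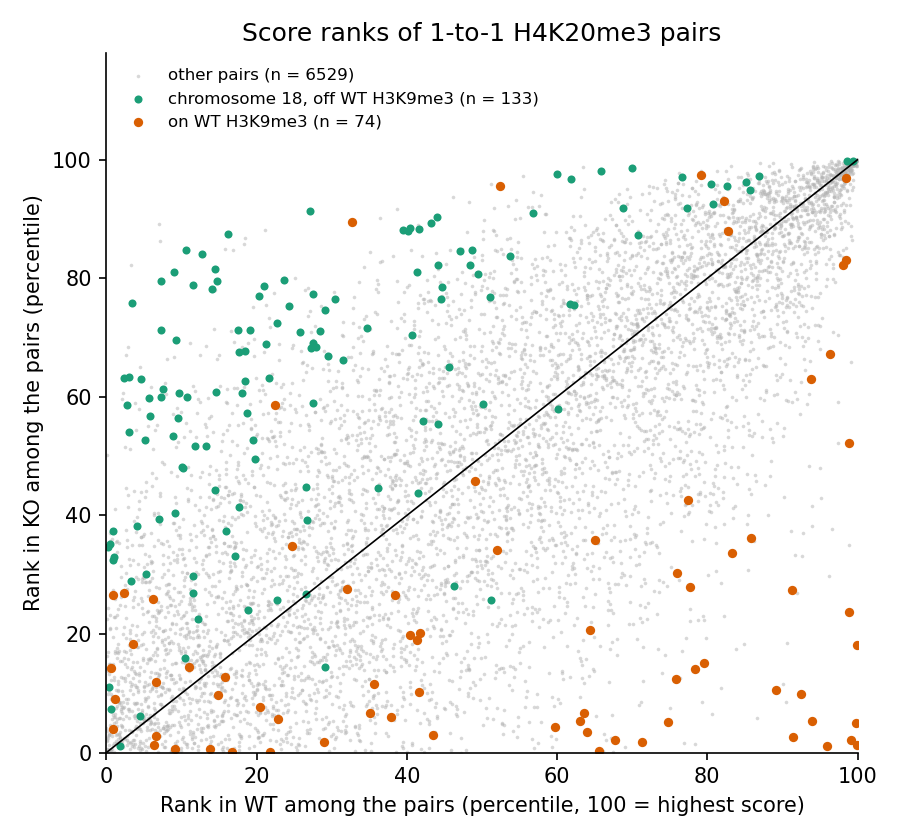
Rank of each 1-to-1 H4K20me3 pair among the 6736 pairs in WT (percentile, horizontal) and in KO (percentile, vertical), with pairs on WT H3K9me3 in orange (74), pairs of chromosome 18 away from it in green (133) and all others in grey (6529). The diagonal marks equal rank. Orange points lie mostly below it and green points almost all above it.

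Rank changes also differed between chromosomes, with copy number unchecked as for length. The median was 36.2 points on chromosome 18 (32.3 to 39.9), where 129 of 134 pairs ranked higher in KO, against 50.5% of all pairs. There 92 (68.7%) moved up by at least 25 points, against 10.1% of all pairs. The median was 17.99 points on chromosome 14 (14.5 to 21.7), where 187 of 209 ranked higher, and 7.96 points on chromosome 6. The lowest medians were -15.4 points on chromosome 13 (-20.1 to -12.1), -14.1 points on chromosome 16 (-18.1 to -10.3) and -8.14 points on chromosome 3. On chromosome 13, 76 of 215 pairs (35.3%) moved down by at least 25 points, against 10.2% of all pairs. The median changes of rank and of length had the same sign on 18 of 19 autosomes, the exception being chromosome 10.

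Within a chromosome the direction was often the same along its length. In windows of 10 Mb with at least 10 pairs, the median rank change was above 0 in all 7 windows of chromosome 18 (20.9 to 39.9 points), all 7 of chromosome 14 (10.5 to 28.2 points) and all 13 of chromosome 11 (0.05 to 10.7 points). It was below 0 in all 13 windows of chromosome 4 (-15.6 to -2.73 points), in 10 of 11 of chromosome 13 and in 6 of 7 of chromosome 16. Over the whole set of 210 windows it was above 0 in 124 and below 0 in 86.

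Other chromosomes held stretches of opposite direction. On chromosome 10 the rank change was below 0 in the 10 windows up to 100 Mb, while the window from 110 to 120 Mb had 6.61 points and that from 120 to 130 Mb 17.2 points. In the latter, 98.4% of 63 pairs were longer in KO, by a median of 427 bp, the highest of all windows, and the lists held 87 WT and 114 KO peaks, 46 of them new. On chromosome 5 the windows from 90 to 100 and from 100 to 110 Mb had 31.1 and 28.0 points, while the other 11 lay between -4.23 and 7.32 points. On chromosome 1 the windows up to 100 Mb and from 120 to 130 Mb lay below 0, and those from 130 Mb on lay above 0. These windows were chosen after their values had been seen.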

How the data were processed

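The software listed per the submitters' processing notes is MACS 1.4, Bowtie2 2.2.1 and CASAVA 1.82, and the build is mm9. How MACS was set, and against which control, is not given in the sources used here. The authors deposited 1 peak list per ChIP library, with chromosome, start, end, a name and a score per peak. Each deposited score is the authors' own value, read here as a MACS score. It served for ordering peaks within each list. The alternative with a score minimum applied the same minimum to both lists and compared the peaks that remained. Whether equal scores mean the same in both libraries is unknown, so that alternative is limited by this. Positions are printed counting from 1. Read depth is unknown, and input libraries were not analysed here.

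Python 3.11.15, with pandas 2.3.3 and numpy 2.4.6, was used for overlaps, gaps and ranks. The 1 bp overlap counts equalled those of bedtools 2.31.1, and the counting was tested on simulated data. Shares carry exact Clopper-Pearson 95% intervals from scipy 1.17.1, and medians carry 95% intervals from binomial order statistics, both over peaks. Named regions are up to 3 of each kind: the longest peaks, lost peaks and new peaks, the largest changes of length and rank among pairs, the most split and joined peaks, and the longest runs, with some repeats and lower places of a kind not retold. Members, lists and measures were chosen with earlier results of these data known. The reference tables at hand use build GRCm38, so no gene names or sequences are given. Alternatives covered overlap, score minimum, list size, merging, pairing and rank base.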

Additional observations from a re-analysis of the deposited data

How the results depend on the processing

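In all, 65 alternatives were computed over the results, 6 of them chosen after seeing the data. With a score of at least 100, the share of WT peaks kept was 73.0%, the whole-list length difference -2 bp, the difference of lost against kept WT peaks -87 bp, the ratio of median gaps 1.15 (1.145), the share of lost peaks with a lost nearest neighbour 49.3% and the ratio of peak numbers 0.862 (0.8615). With equal numbers of highest-scoring peaks, 76.0% of WT and 77.1% of KO peaks were found in the other list, the length difference was -63 bp, the difference of lost against kept -89.5 bp, the median length change of pairs -3 bp, the share of pairs longer in KO 49.2% (49.25%), the gap ratio 0.980 and the lost neighbour share 52.3%. With an overlap of 50% of the peak, 63.6% of WT and 82.0% of KO peaks were found. With a distance of 1 kb these were 67.8% and 87.1%, and the lost neighbour share was 60.5%. With peaks within 5 kb merged they were 71.9% and 86.8%, the gap ratio was 1.17 and the number ratio 0.828. With each KO peak paired to the WT peak it overlapped most, the median length change was -1 bp. Covered bases gave a ratio of 3.89 between the highest and lowest autosome. Without peaks on WT H3K9me3, the difference of lost against kept was -271.5 bp. The lost neighbour share was 54.4% when peaks on WT H3K9me3 were left out of the count but could still be neighbours. The difference between lost and kept peaks kept its direction under all 5 alternatives tried, as did the rank change on WT H3K9me3 under all 4. The cause of these movements was not tested. No paired analysis was possible because each genotype has 1 library and the result comes from no test.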
